A study of Mus musculus with 4 samples.

Results

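MHC class II molecules display peptides from proteins a cell has taken up, and they are a hallmark of dendritic cells, B cells and activated macrophages. An alpha and a beta chain pair in the endoplasmic reticulum, and the invariant chain Cd74 escorts the pair and fills its groove until the editor H2-DM, a dimer of H2-DMa and H2-DMb1, exchanges the last invariant-chain fragment for a peptide. Ciita is the transactivator that switches the whole family on through factors bound at the X and Y boxes of its promoters. Microglia of the healthy brain are known for low surface class II, whereas dendritic cells and some macrophages of the meninges, the choroid plexus and the perivascular spaces carry it.

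Described here are 7 genes of that family, chosen by symbol among the 32227 genes of the count tables: the invariant chain Cd74, the classical chains H2-Aa, H2-Ab1 and H2-Eb1, the editor subunits H2-DMa and H2-DMb1, and Ciita. They were measured in 4 single-cell libraries of CD11b+ cells that magnetic beads had pulled from the cortex of wild-type mice at postnatal day 15. As newborns (day 0 or 1) the mice had received an adeno-associated virus into the cortex, in which the astrocyte promoter GfaABC1D drove either mCherry, the control (2 libraries), or Hevin, a secreted synapse-organising protein encoded by Sparcl1 (2 libraries). All groups share the virus injection and the dissociation with the transcription and translation blockers Actinomycin D, Triptolide and Anisomycin. Neither the number of mice nor their sexes are given for a library, so p-values measure the spread between these libraries, which may in part be technical.

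Each count is a unique molecular identifier (UMI), one tagged RNA molecule. The libraries held between 10877 and 19855 cell barcodes and between 49781430 and 67832685 UMIs, with a median of 2317 (Hevin 1) to 4037 (mCherry 2) UMIs per barcode, and the smallest barcode held 965 UMIs in Hevin 1 and 2993 in mCherry 2. Between 1 and 7 barcodes were shared by any pair of libraries. Itgam, which encodes CD11b, stood at 740, 828, 414 and 533 counts per 1000000 UMIs (CPM) in mCherry 1, mCherry 2, Hevin 1 and Hevin 2. In astrocyte-gated cells (92, 36, 72 and 28 per library) Sparcl1 stood at 4687, 5735, 4770 and 8514 CPM, so the groups overlapped and the labels were not checked by it. Xist, which is made in female cells, stood at 539, 1046, 1.19 and 1210 CPM, so the libraries differed in the sex of their mice, with Hevin 1 near 0; the part of sex in the results was not tested.

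Cells were put into classes by marker genes, none of them a class II gene. Microglia-gated cells numbered 15610, 9479, 7037 and 6020 (in the library order mCherry 1, mCherry 2, Hevin 1, Hevin 2, which is kept throughout), and macrophages of the brain borders (Lyve1, Cd163, F13a1, Mrc1 and others) 1252, 849, 965 and 750. Cells with monocyte or dendritic markers (Ccr2, Plac8, Flt3, Cd209a and others) numbered 190, 116, 199 and 164, or 1.07, 1.07, 1.01 and 1.26% of the cells. Cells high in Apoe, with Ms4a7 and without Sall1, called Apoe-high macrophages here, numbered 30, 22, 7706 and 4609. The Apoe-high class was thus nearly confined to the Hevin libraries, and its values are read there. Endothelial-gated cells (283, 176, 283 and 139) were taken as a class that should lack class II RNA, and so as a gauge of free RNA.

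H2-DMa, H2-DMb1, H2-Ab1, H2-Aa and H2-Eb1 lie in that order within the major histocompatibility complex on chromosome 17 of the mouse genome build GRCm38 (mm10), between the start of H2-DMa at 34119541 and the end of H2-Eb1 at 34316674 in the GENCODE M21 annotation. Ciita is at 10480059 to 10528418 on chromosome 16, and all 7 genes are annotated as protein coding. The promoter table from RefSeq (GRCm38.p6) matched 4 of the 7 genes, and the 250 bases before each start are shown because members that moved together below can be compared by the boxes through which Ciita acts. Capitals mark 3 motifs: CCAAT or its complement ATTGG (the Y box core), ACTGATG (the end of an X box form) and TGACGTCA (a cyclic AMP response element). All were searched on both strands, their letters were chosen after the windows had been seen, and no match overlaps another.
H2-Eb1 (chr17:34305617-34305866, + strand): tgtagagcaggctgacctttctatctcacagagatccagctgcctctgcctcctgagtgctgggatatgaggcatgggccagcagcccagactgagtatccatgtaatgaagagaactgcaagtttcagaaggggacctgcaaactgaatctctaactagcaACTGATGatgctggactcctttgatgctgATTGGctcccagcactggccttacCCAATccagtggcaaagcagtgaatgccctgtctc
H2-DMb1 (chr17:34152941-34153190, + strand): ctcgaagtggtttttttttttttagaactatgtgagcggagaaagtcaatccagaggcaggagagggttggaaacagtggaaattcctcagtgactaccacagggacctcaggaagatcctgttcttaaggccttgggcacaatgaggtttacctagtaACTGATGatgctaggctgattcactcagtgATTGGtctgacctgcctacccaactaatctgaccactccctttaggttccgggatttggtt
H2-Aa (chr17:34287824-34288073, - strand): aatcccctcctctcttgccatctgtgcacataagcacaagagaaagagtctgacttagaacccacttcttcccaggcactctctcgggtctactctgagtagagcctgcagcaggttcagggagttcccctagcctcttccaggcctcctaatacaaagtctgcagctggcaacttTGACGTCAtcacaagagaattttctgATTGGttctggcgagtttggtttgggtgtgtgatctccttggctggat
H2-DMa, first start (chr17:34122582-34122831, + strand): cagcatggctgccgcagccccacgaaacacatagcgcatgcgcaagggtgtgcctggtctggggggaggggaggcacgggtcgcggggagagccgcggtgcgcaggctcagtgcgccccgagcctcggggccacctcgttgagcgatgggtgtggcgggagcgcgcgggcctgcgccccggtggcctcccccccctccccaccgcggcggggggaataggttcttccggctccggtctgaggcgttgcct
H2-DMa, second start (chr17:34125268-34125517, + strand): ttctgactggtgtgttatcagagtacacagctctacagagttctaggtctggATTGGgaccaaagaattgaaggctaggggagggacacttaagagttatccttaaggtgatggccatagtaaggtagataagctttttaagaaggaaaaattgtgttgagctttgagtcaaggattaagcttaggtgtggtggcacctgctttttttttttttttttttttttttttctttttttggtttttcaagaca
In H2-Eb1 ACTGATG begins 88 bases before the start and ATTGG 59 bases before it, and CCAAT follows at 35. In H2-DMb1 the same pair begins at 91 and 61, and both motifs lie after the start of the annotated gene at 34153072. H2-Aa has TGACGTCA at 74 and ATTGG at 48. H2-DMa has none of the motifs before its first listed start, in a window of 73.0% G and C, and a single ATTGG 198 bases before its second. These windows lie inside the annotated gene, after its start at 34119541. Any other start of H2-DMa was not searched, so the boxes of its promoter remain undescribed. Over all 32851 windows of 300 bases in the table (250 before and 50 after a start), CCAAT was found in 37.4%, ACTGATG in 3.19%, TGACGTCA in 1.79%, and CCAAT together with ACTGATG in 1.18%. These matches describe letters in a window and say nothing of factor binding.

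The invariant chain and the classical chains were concentrated in the small monocyte- or dendritic-gated class. Class levels are CPM of the UMIs of that class in a library. Cd74, at 60803848 to 60812652 on chromosome 18, reached 17095, 18203, 18241 and 20190 CPM there, against 152, 98.6, 175 and 163 in microglia-gated cells. H2-Aa, the alpha chain of the I-A molecule, stood at 5695, 6904, 7481 and 7176 in the monocyte or dendritic class and at 24.5, 15.7, 45.3 and 27.0 in microglia. The classes did not overlap in any library. H2-Ab1, the beta chain that pairs with H2-Aa, ranged from 5783 to 6809 in the monocyte or dendritic class, and H2-Eb1, the beta chain of the I-E molecule, from 6248 to 7728. Ciita stood at 104, 101, 126 and 127 there and at 1.03, 0.664, 0.664 and 0.687 CPM in microglia.

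The editor subunits were spread otherwise. H2-DMa stood at 907, 906, 1039 and 1005 CPM in monocyte- or dendritic-gated cells and at 186, 168, 236 and 230 in microglia-gated cells. In Apoe-high macrophages of Hevin 1 and Hevin 2 it stood at 403 and 410, between both. Border macrophages held 49.7, 38.2, 86.8 and 68.3 and endothelial cells 34.3, 33.2, 61.6 and 30.2, ranges that overlap each other. The order for H2-DMa was therefore monocyte or dendritic, Apoe-high, microglia, and then border and endothelial cells. H2-DMb1 followed another order, with 736, 870, 800 and 853 in the monocyte or dendritic class, 77.1, 74.8, 69.1 and 70.9 in microglia, 44.4 and 45.7 in Apoe-high macrophages of the Hevin libraries, and 37.1, 27.8, 41.7 and 27.7 in border macrophages. Endothelial cells were lowest for H2-DMb1 at 14.1, 10.3, 13.4 and 3.45.

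**Figure D1:**
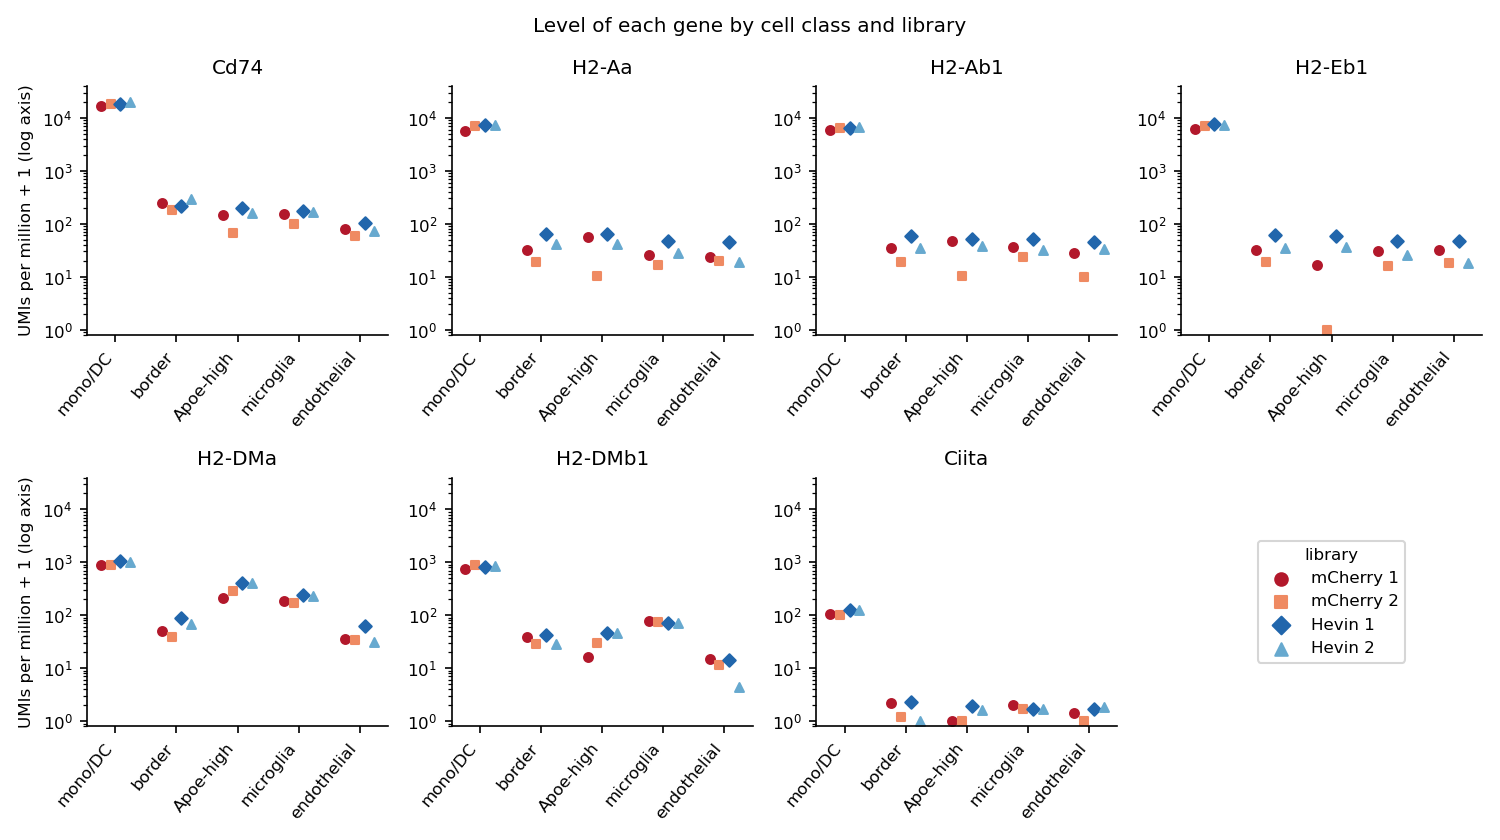
CPM plus 1 (UMIs per 1000000 UMIs of the class), on a log axis, of the 7 genes in 5 cell classes, with one point per library and classes of under 20 cells left out. The monocyte or dendritic class (mono/DC) is highest in every panel. H2-DMa and H2-DMb1 are higher in microglia than in endothelial cells, while H2-Aa, H2-Ab1 and H2-Eb1 stay at or below 63.6 CPM in the 4 other classes.

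In microglia, border macrophages, Apoe-high macrophages and endothelial cells the classical chains were far lower, at 63.6 CPM or less. H2-Aa in endothelial cells was 22.3, 19.2, 44.2 and 18.1 CPM, beside 24.5, 15.7, 45.3 and 27.0 in microglia and 31.3, 17.9, 63.6 and 39.7 in border macrophages, and in all 3 classes Hevin 1 was highest. In Apoe-high macrophages of the Hevin libraries H2-Aa was 61.9 and 40.3, above the endothelial level of the same libraries. H2-Eb1 in Hevin 2 was 35.9 in Apoe-high macrophages and 17.3 in endothelial cells, and H2-Ab1 in mCherry 2 was 22.1 in microglia and 8.84 in endothelial cells; these endothelial values rest on 20 and 12 UMIs. To compare shares of cells at 1 depth, each cell was thinned to 1000 UMIs. A UMI of H2-Aa, H2-Ab1 or H2-Eb1 was then found in 8.39, 4.92, 13.5 and 7.99% of microglia and in 8.48, 4.55, 13.9 and 7.19% of endothelial cells. Border macrophages gave 7.99, 4.59, 12.4 and 8.27%, and Apoe-high macrophages of the Hevin libraries 12.6 and 7.79%. By this measure the 3 myeloid classes stood near the endothelial share of the same library, so an excess of cells with a chain UMI was not detectable at this depth; the part of free RNA was not tested. Before thinning the shares were 26.3, 18.8, 27.6 and 24.3% in microglia and 42.0, 24.4, 43.5 and 41.0% in endothelial cells, whose median depths were 3271, 3955, 2072 and 3314 against 5512, 6070, 3744 and 5374 UMIs. In the monocyte or dendritic class 75.8, 88.8, 82.4 and 83.5% of thinned cells held a chain UMI.

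H2-DMa and Cd74 differed from that pattern. After thinning, H2-DMa was found in 16.1, 15.0, 20.1 and 20.5% of microglia, in 32.5 and 32.3% of Apoe-high macrophages of the Hevin libraries, and in 4.59, 4.55, 4.98 and 2.16% of endothelial cells. Before thinning its shares were 43.9, 45.2, 37.8 and 49.4% in microglia and 24.0, 18.8, 25.8 and 22.3% in endothelial cells. H2-DMb1 was found in 7.53, 7.22, 6.20 and 6.58% of thinned microglia, again above the endothelial shares, which were at most 2.14%. Cd74 in microglia exceeded its endothelial level (77.5, 56.7, 104 and 72.5 CPM) in each of the 4 libraries, and border macrophages were higher still at 245, 179, 216 and 293. The few astrocyte-gated cells held 107, 267, 143 and 71.6, above microglia in mCherry 2. After thinning, Cd74 was found in 7.61, 2.78, 17.4 and 14.3% of astrocytes and in 11.5, 6.89, 14.5 and 11.9% of microglia. By that share the Hevin libraries had more in astrocytes.

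Ratios of UMIs within a class carry the same contrast without the choice of a total. Cd74 per UMI of H2-Aa was 3.0, 2.64, 2.44 and 2.81 in the monocyte or dendritic class and 3.48, 2.96, 2.35 and 4.0 in endothelial cells. In microglia it was 6.20, 6.28, 3.86 and 6.05, and in border macrophages 7.80, 10.0, 3.4 and 7.37, with Hevin 1 lowest in both. H2-DMa per UMI of H2-DMb1 was 1.23, 1.04, 1.30 and 1.18 in the monocyte or dendritic class and 2.42, 2.24, 3.41 and 3.25 in microglia. In Apoe-high macrophages of the Hevin libraries it was 9.09 and 8.96. H2-DMb2, a neighbour of H2-DMb1 whose transcripts share 29.7% of their 31-base words with it, could exchange reads with H2-DMb1. With both beta genes summed, the ratio was 5.71 and 5.82 in Apoe-high macrophages and 2.16, 2.02, 2.87 and 2.83 in microglia, so the order of the classes stayed.

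**Figure D2:**
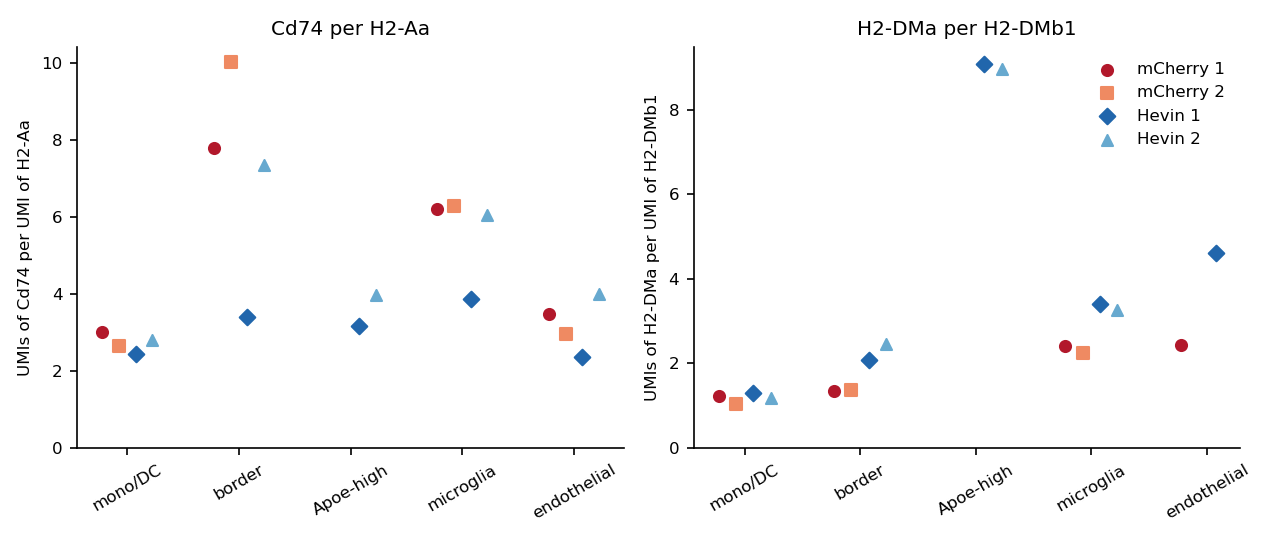
UMIs of Cd74 per UMI of H2-Aa (left) and of H2-DMa per UMI of H2-DMb1 (right) in 5 classes, one point per library; ratios over fewer than 20 UMIs of the second gene are not drawn. Apoe-high macrophages of both Hevin libraries sit near 9 on the right, above every microglia value, and border macrophages and microglia other than those of Hevin 1 sit above 6 on the left.

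Because the monocyte or dendritic class is small, its share of each gene's UMIs shows how concentrated the family was. These cells held 57.3, 65.8, 55.2 and 59.1% of all Cd74 UMIs and 70.4, 76.5, 61.5 and 69.2% of those of H2-Aa. For H2-Ab1 the share ran from 61.6 to 73.8%, for H2-Eb1 from 61.8 to 77.1% and for Ciita from 57.1 to 69.8%. For H2-DMa it was 8.81, 9.55, 6.41 and 6.23%. The mCherry libraries had 84.2 and 83.5% of their H2-DMa UMIs in microglia, near the 81.5 and 82.0% of all UMIs that microglia held there. In the Hevin libraries microglia held 21.3 and 31.3% of them and Apoe-high macrophages 52.9 and 47.3%. In Hevin 1 microglia held 29.9% of all UMIs. H2-DMa stood at 403 and 410 CPM in Apoe-high macrophages of the Hevin libraries and at 332 and 306 in all kept cells. Their share of H2-DMa was thus only moderately above their share of all UMIs. Cells in no class, 245, 124, 3303 and 1262 per library, held between 12.6 and 21.8% of the Cd74 UMIs.

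**Figure D3:**
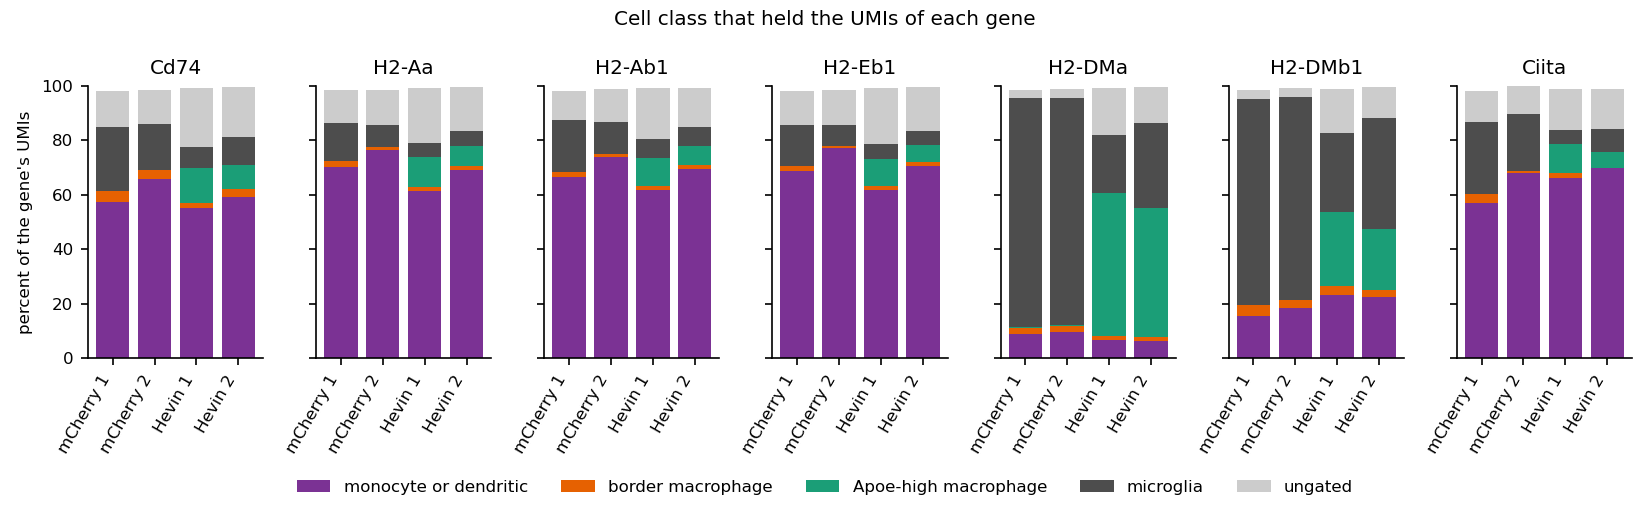
Share of each gene's UMIs (percent, from 0 to 100) held by 4 gated classes and by ungated cells, one bar per library; the space above a bar belongs to the other classes. Monocyte- or dendritic-gated cells hold over 55% of Cd74, H2-Aa, H2-Ab1, H2-Eb1 and Ciita in every library, and microglia plus Apoe-high macrophages hold most of H2-DMa.

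Within the monocyte or dendritic class, class II RNA varied widely from cell to cell. Cd74, H2-Aa, H2-Ab1 and H2-Eb1 together made up a median of 3.31, 4.17, 4.21 and 4.85% of a cell's UMIs, and 8.28 to 9.37% in the highest cell of each library. At the other end, 50 of 190, 13 of 116, 36 of 199 and 25 of 164 cells held under 0.1%. Cells with more dendritic than monocyte markers had more of each of these 4 genes than the remaining cells of the class. Cd74 was 24127, 22225, 22008 and 25068 CPM in the former and 12072, 15205, 14387 and 15497 in the latter. Ciita differed in the same direction, with 152, 166, 162 and 155 against 70.8, 52.7, 89.3 and 100.2. H2-DMa differed less, with 1025, 889, 1187 and 1098 against 822, 918, 888 and 915, and mCherry 2 went the other way. At least 1 Ciita UMI was seen in 78, 55, 80 and 79 cells of the class, and Cd74 was found in 100% of them. Among the cells with no Ciita UMI, Cd74 was found in 74.1, 85.2, 80.7 and 85.9%; depth was not matched between these cells.

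Genes outside the family whose levels ran most like it were found by Pearson correlation of log2(CPM + 1) with the mean of the 7 members over 33 sums by class and library, among 9999 genes. The 10 highest were Pira2, Adgre4, Skint3, Cd244a, Gpr141, Lsp1, Cytip, Cd209c, Napsa and Gm15987, with correlations from 0.97 to 0.93. Napsa, an aspartic protease, is also one of the dendritic markers of the gate. Its level was 382, 370, 397 and 427 CPM in the monocyte or dendritic class and 1.54, 0.66, 2.42 and 0.92 in microglia. Among the members, Cd74 (0.99) ran closest to the family mean and H2-DMa (0.81) least close. With the monocyte or dendritic class and the ungated cells left out, the correlation of H2-DMa with H2-Aa was 0.01 over 25 sums. The sums of a library share its depth and free RNA, and these correlations describe which classes express a gene.

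With all kept cells of a library summed, 5 of the 7 genes were higher in the Hevin libraries, and none was lower. Over all 19119 genes tested, 11.1% were called (6.85% as higher and 4.3% as lower in Hevin), at an adjusted p under 0.05 in edgeR's quasi-likelihood test. The median log2 fold change was 0.53 over the 7 members and 0.00 over all genes. Values are CPM scaled by TMM, the normalization of that test. H2-DMa stood at 172 and 159 in the mCherry libraries and at 349 and 317 in the Hevin libraries, a log2 rise of 1.01 ± 0.09 (SE; edgeR adjusted p = 0.0013). Cd74 stood at 499.8 and 464 against 711 and 671, a rise of 0.52 ± 0.09 (adjusted p = 0.0139). The groups did not overlap for either gene, nor for any other member, called or not, so this sets neither gene apart. The share of all genes without overlap was not counted.

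The classical chains moved by similar amounts in these sums. H2-Aa was 136 and 151 in mCherry and 262 and 204 in Hevin (0.70 ± 0.13, SE; edgeR adjusted p = 0.0177). H2-Ab1 was 146 and 146 against 227 and 192 (0.53 ± 0.10; edgeR adjusted p = 0.017). H2-Eb1 was 152 and 154 against 269 and 208 (0.64 ± 0.12; edgeR adjusted p = 0.021). For each of them Hevin 1 was the highest library, as it was for the chain level in endothelial cells. H2-DMb1 was 79.1 and 79.6 against 74.6 and 74.6, a difference of -0.09 ± 0.06 that did not pass (edgeR adjusted p = 0.467). Ciita, at 3.06 and 2.49 against 4.10 and 3.58, did not pass either (0.46 ± 0.19; edgeR adjusted p = 0.188). With cells of at least 3000 UMIs, 1 of the 7 members, H2-DMa, was called beside 7.07% of genes, while the median over the members was larger, at 0.82; Cd74 and the classical chains then had edgeR adjusted p-values from 0.0534 to 0.0732.

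**Figure D4:**
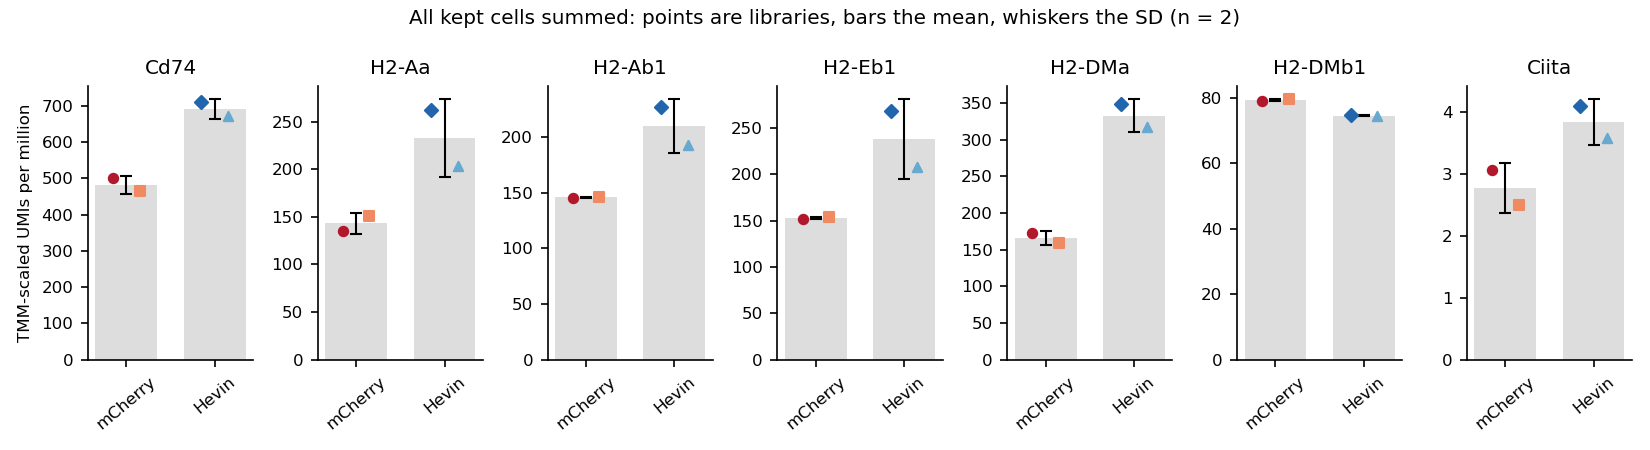
TMM-scaled CPM of the 7 genes in the sum of all kept cells; points are the 4 libraries, bars the group means and whiskers the SD (n = 2 libraries). H2-DMa separates most, at 159 to 172 in mCherry and 317 to 349 in Hevin, and H2-DMb1 is near 75 to 80 in all libraries.

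A sum over all cells holds both the makeup of a library and the level in each class. Split by class, the rise of H2-DMa by 147 CPM of the library had 160 in Apoe-high macrophages, 43.0 in ungated cells and -61.4 in microglia, whose number was lower in the Hevin libraries. The rise of Cd74 by 161 had 70.9 in the monocyte or dendritic class, 70.9 in Apoe-high macrophages, 67.3 in ungated cells and -42.2 in microglia. The ungated cells included some rich in class II, described under the other observations. The monocyte or dendritic class held 47.3, 50.2 and 49.3% of the rises of H2-Aa, H2-Ab1 and H2-Eb1. With monocyte-, dendritic- and B-cell-gated cells left out, 5 members were called, beside 11.4% of 19037 genes.

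Within single classes no member passed the test of Hevin against mCherry in the fit by group alone, though all 3 medians over the members were above 0 (0.48 in microglia, 0.83 in border macrophages and 0.24 in the monocyte or dendritic class, beside -0.01, 0.00 and 0.00 over all genes). In microglia-gated cells 0.0759% of 17132 genes were called and 0 of 7 members, and H2-DMa differed by 0.45 ± 0.08 (edgeR adjusted p = 0.16). In border macrophages 0.482% of 12237 genes were called and 0 of 6 members, Ciita being too low to test. The value nearest the threshold was again that of H2-DMa, 0.85 ± 0.15 (edgeR adjusted p = 0.0635). In the monocyte or dendritic class 0.806% of 8934 genes were called and 0 of 7 members. H2-Eb1 at 0.26 ± 0.06 and H2-Aa at 0.29 ± 0.07 were nearest (edgeR adjusted p = 0.074 and 0.0849). DESeq2 called 1, 1 and 2 members in these 3 classes, beside 0.969, 0.515 and 0.795% of genes. Without mCherry 1, 3 members were called in microglia (0.645% of genes) and 4 in border macrophages (0.818%). Without Hevin 2, 3 were called in border macrophages (0.751%), and without mCherry 2, 1 was called there (1.29%) and 4 in the monocyte or dendritic class (1.4%).

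**Figure D5:**
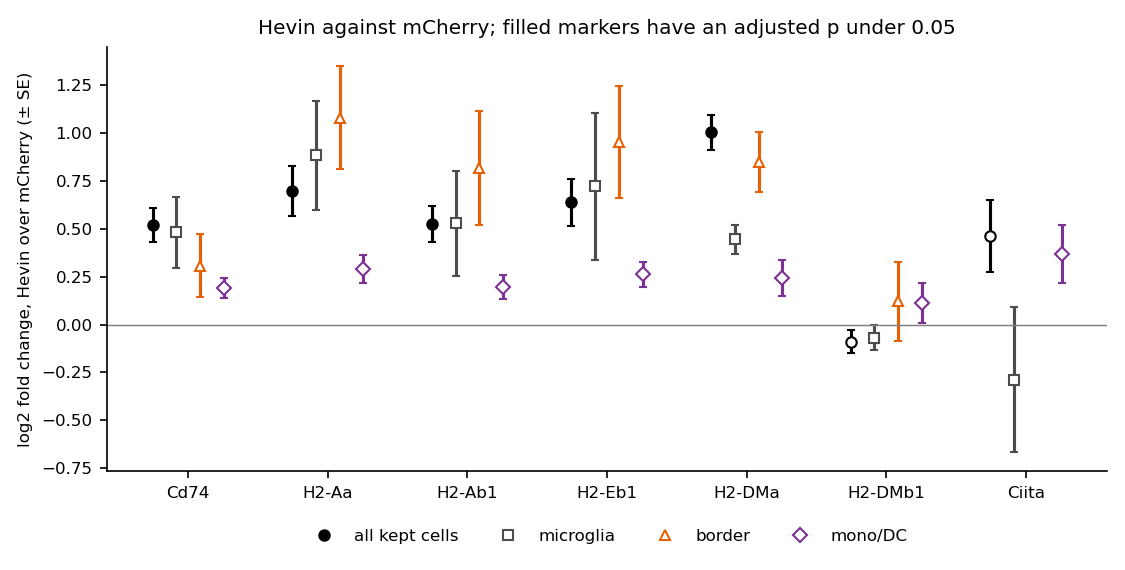
Log2 fold change of Hevin over mCherry with its SE for the 7 genes, in all kept cells and in 3 gated classes; filled markers have an edgeR adjusted p under 0.05. The 5 filled markers all belong to the sum of all kept cells, and H2-DMb1 lies near 0 in all 4 fits.

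The share of cells with at least 1 UMI of Cd74 or a classical chain, after thinning, was compared over libraries by an exact permutation test, which with 2 against 2 cannot go below p = 0.33. Microglia gave 18.8 and 11.4% in mCherry and 26.1 and 18.7% in Hevin, so the groups overlapped. Endothelial cells gave 15.5, 7.95, 22.4 and 15.8%, also with Hevin 1 highest and mCherry 2 lowest, and there the groups did not overlap. The monocyte or dendritic class gave 79.5, 89.7, 86.4 and 87.8%, with mCherry 2 above both Hevin libraries. A test of whether the Hevin difference itself differed between border macrophages and microglia called 0 of 6 members beside 0.541% of 14411 genes. The largest value was that of H2-DMa, 0.40 ± 0.12 (edgeR adjusted p = 0.371), and DESeq2 called 0 members.

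Border macrophages and microglia of the same library differed in 4 of the 6 members tested, where 59% of 14411 genes were called (29% as higher and 30.1% as lower). Cd74 was higher in border macrophages by a log2 difference of 0.53 ± 0.09 (edgeR adjusted p = 2.0e-04), and H2-Aa by 0.26 ± 0.08 (edgeR adjusted p = 0.0108). H2-DMa was lower, with a difference of -1.95 ± 0.09 (edgeR adjusted p = 3.65e-09), and so was H2-DMb1, with -1.28 ± 0.09 (edgeR adjusted p = 1.7e-07). A share of 4 in 6 is near the background of this contrast. H2-Aa in border macrophages was above its endothelial level in 3 of 4 libraries, and with stricter gates its difference from microglia was -0.0095.

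Apoe-high macrophages were compared with microglia of the same library, a contrast that called 37.7% of 15397 genes (20.1% as higher and 17.6% as lower) and 5 of 7 members. H2-DMa was higher by 0.80 ± 0.10 (edgeR adjusted p = 5.8e-16) and H2-DMb1 lower, with a difference of -0.56 ± 0.07 (edgeR adjusted p = 1.1e-13). H2-Aa (0.61 ± 0.09), H2-Eb1 (0.49 ± 0.09) and H2-Ab1 (0.24 ± 0.09) were also called higher; Cd74 (0.14 ± 0.07) and Ciita (0.25 ± 0.33) were not. Without Hevin 1, without Hevin 2, with DESeq2 and with stricter gates, 1 member was called higher and 1 lower, beside 12.8, 10.2, 13.7 and 25.9% of genes. With at least 3000 UMIs per cell and with at most 5% mitochondrial UMIs, 5 were higher and 1 lower, beside 35.9 and 38.4%. With H2-DMb1 and H2-DMb2 summed, the difference of the beta gene was -0.15 ± 0.07 and no longer called (edgeR adjusted p = 0.0743). In the Hevin libraries alone, which hold nearly all of these cells, 5 members were higher and 1 lower, beside 42.2% of genes, and Cd74 was among the higher ones (0.16 ± 0.05; edgeR adjusted p = 0.00822). There TMM-scaled H2-DMa was 227 and 225 in microglia and 419 and 420 in Apoe-high macrophages.

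Border macrophages of the mouse are often divided into Lyve1-high cells and cells high in class II. Split by at least 1 Lyve1 UMI, they were 1096, 776, 785 and 668 Lyve1-positive and 156, 73, 180 and 82 Lyve1-negative cells. H2-Aa was 27.9, 18, 62.9 and 34.7 CPM in Lyve1-positive and 60.3, 16.9, 67.3 and 86.5 in Lyve1-negative cells, so the libraries did not agree on its size and mCherry 2 showed no difference. In the test it was lower in Lyve1-positive cells, with a log2 difference of -0.73 ± 0.19 (edgeR adjusted p = 0.0121), as was H2-Eb1, with -0.66 ± 0.19 (edgeR adjusted p = 0.0491), beside 1.97% of 10080 genes called (1.07% as lower). Cd74 differed by -0.24 ± 0.08 and was not called (edgeR adjusted p = 0.133). Both calls were lost without mCherry 1, without Hevin 2 and with DESeq2. They were also lost with cells of at least 3000 UMIs, with at most 5% mitochondrial UMIs and with stricter gates. Looser gates called 5 members lower, in a setting that called 254 genes in all, against 199 in the test reported.

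The wider pathway was read from a list of genes that make, load and use class II. In the sum of all kept cells, 9 of its 39 tested genes were higher in Hevin (23.1%, beside 6.85% of all genes) and 2 were lower (5.13%, beside 4.3%). Among the genes of interferon-gamma signalling, Ifngr2, a chain of the interferon-gamma receptor, was higher by 0.27 ± 0.06 on the log2 scale. None of the 7 promoter factors, such as Rfx5 and Nfya, passed. Of 7 processing genes, Ifi30, a thiol reductase of the lysosome, was higher by 0.79 ± 0.08 (246, 238, 422 and 414 TMM-scaled CPM) and Ctsl, a cathepsin that cuts the invariant chain, lower, with -0.58 ± 0.11 (1725, 1713, 1063 and 1234).

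Of 3 other class II genes tested, H2-DMb2 was higher by 1.04 ± 0.12 and H2-Oa, a subunit of the H2-DM inhibitor H2-O, lower, with -0.66 ± 0.11. H2-DMb2 stood at 11.4, 10.2, 24.2 and 20.3 and H2-Oa at 34.0, 36.6, 19.9 and 24.8. Cd83, which lengthens the life of surface class II, was higher by 0.69 ± 0.08. Of 6 co-stimulation genes, Icosl (0.98 ± 0.07) and Cd80 (0.32 ± 0.08), ligands for T-cell receptors of co-stimulation, were higher. Of 5 genes that go with Cd74 as the receptor of the cytokine MIF, its partners Cd44 (1.24 ± 0.10) and Cxcr4 (3.03 ± 0.15) were higher. Cxcr4 stood at 3.08, 3.13, 28.6 and 22.2.

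Within classes, the list gave 0 of 38 calls in microglia and 0 of 37 in border macrophages between Hevin and mCherry. In the monocyte or dendritic class 2 of 35 were called, both lower, beside 0.627% of all genes tested there. Ctsl was 428, 386, 216 and 207 there (-0.94 ± 0.13; edgeR adjusted p = 3.5e-04), and Lgmn, a protease that also acts on the invariant chain, was 1392, 1401, 1051 and 934 (-0.49 ± 0.09; edgeR adjusted p = 0.0114). Between Apoe-high macrophages and microglia, 16 of 38 were higher (42.1%, beside 20.1% of all genes) and 7 lower (18.4%, beside 17.6%, so near the background). All 5 co-stimulation genes tested were among the higher ones, with Cd274 at 1.52, Cd40 at 1.85, Icosl at 1.14, Cd80 at 0.55 and Cd86 at 0.28. Cd74's partners Cxcr4 (3.72) and Cd44 (2.43) were higher, as were H2-DMb2 (1.21), Cd83 (0.90), Ifi30 (0.75), Ctsb (0.69), Ifngr2 (0.44), Marchf8 (0.34), Ddt (0.32) and Irf1 (0.27). The lower ones were Ctsl (-1.36), Cxcr2 (-1.25), H2-Oa (-1.11), Lgmn (-0.73), Ifngr1 (-0.44), Nfya (-0.43) and Ctss (-0.33).

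Between border macrophages and microglia, 13 of 38 were higher (34.2%, beside 29% of all genes, so near the background) and 17 lower (44.7%, beside 30.1%). Border macrophages had more Cd40 (3.96), Cxcr4 (2.95), Cd44 (2.51), Ctsb (1.17), Marchf8 (1.14), Cd274 (1.01), Cd86 (0.57), Jak2 (0.36), Rfxap (0.35), Jak1 (0.27), Cd80 (0.26) and Creb1 (0.23). They had less of all 3 other class II genes, H2-Oa (-2.58), H2-Ob (-1.89) and H2-DMb2 (-0.94), of the cathepsins Ctss (-1.99), Ctsl (-1.45) and Ctsd (-1.26), and of Lgmn (-1.17) and Sppl2a (-0.25). Cxcr2 (-1.32), Irf8 (-1.02), Ifngr1 (-0.83), Nfya (-0.83), Nfyb (-0.56), Mif (-0.40), Icosl (-0.29), Ifngr2 (-0.24) and Nfyc (-0.16) were also lower. Lyve1-positive border macrophages had less Cd83 (-0.65), Ctss (-0.22) and Lgmn (-0.16) than Lyve1-negative ones, 3 of 33 tested. Over all genes 1.07% were called lower in this contrast, and all its calls fell from 199 to 45 with stricter gates.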

How the data were processed

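PIPseq libraries of CD11b+ cells were deposited as raw UMI counts per gene and barcode, per the file headers, and the submitters' processing notes name build mm10. How reads were aligned and counted and how cells were called is not given in the sources used here. Depth per library was 49781430 to 67832685 UMIs, which sets the counting error. Cells with at least 500 UMIs, 300 genes and at most 10% mitochondrial UMIs were kept (17833, 10849, 19653 and 13036). Gates used marker genes: microglia markers at 1% of UMIs; border markers at 0.5%, other lineages at 0.3%, each from 3 markers; monocyte or dendritic cells, 5 UMIs from 3 markers; Apoe-high cells, Apoe at 1.5%, an Ms4a7 UMI, no Sall1 and microglia markers under 0.8%. The thresholds were set after the marker levels had been seen. No doublet caller was run; cells in several gates (40, 24, 10 and 23) were left out of the classes.

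Counts were summed per class and library and tested with edgeR 4.0.16 in R 4.3.3 (quasi-likelihood, TMM, filterByExpr, Benjamini-Hochberg over all genes tested; group as the term, or library as a block between classes); classes of under 20 cells in a library were left out. On simulated counts with each gene's own dispersion, false calls made up 13.1% of calls in all kept cells, 13.2% in microglia and 10% between border macrophages and microglia, more than the adjusted p threshold of 0.05 allows; with trended dispersion they were 4.97, 2.78 and 3.23%. Alternatives were DESeq2 1.42.0, other scalings, filters, gates, cell limits, a replicate block, and leaving out each library. The rule for named genes takes all members, called pathway genes and the 10 genes most correlated with the members. Members and lists were chosen with earlier results of these data known. A gene counted in the pathway list is not reported here by name. H2-DMb1 and H2-DMb2 summed, and the Hevin libraries alone, were alternatives added after seeing the data.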

Additional observations from a re-analysis of the deposited data

How the results depend on the processing

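Of the member values, 514 of 595 under other settings and 171 of 208 with a library left out kept their direction and their side of the threshold; 45 and 16 gained a call, 24 and 12 lost one, and 12 and 9 changed sign. The cause of these changes was not tested. Counts below are members called. Calls over all genes changed with the setting as well. With the replicate block they rose from 13 to 521 in microglia and from 59 to 459 in border macrophages. In the monocyte or dendritic class they rose from 72 to 186. Not every setting has its share of all genes beside it, so these counts are not read as results about the members. In all kept cells, 5 became 1 with at least 3000 UMIs per cell, where the median over the members was 0.82 against 0.53. In microglia, 0 became 1 with DESeq2, 5 without a filter, 5 with the replicate block and 0 to 3 with a library left out. In border macrophages, 0 became 1 with DESeq2, with at least 3000 UMIs, without the top 5% of UMI totals and with looser gates, 4 without a filter, 5 with the replicate block and 0 to 4 with a library left out. In the monocyte or dendritic class, 0 became 2 with DESeq2 and with at most 5% mitochondrial UMIs, 3 without a filter, 3 with the replicate block and 0 to 4 with a library left out. Between Apoe-high macrophages and microglia, 5 became 2 with DESeq2, with stricter gates and without either Hevin library (2 to 5 over libraries left out). Between Lyve1 groups, 2 became 1 with total counts and without a filter, 0 with DESeq2, at least 3000 UMIs, at most 5% mitochondrial UMIs and stricter gates, 5 with looser gates and 0 to 2 with a library left out.

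The values that changed sign were these. H2-DMb1 in all kept cells was 0.10 with H2-DMb2 added and 0.0361 with at least 3000 UMIs, and in border macrophages -0.19 to 0.40 with a library left out. Ciita in microglia was -0.55 to 0.0693 over libraries left out. Between border macrophages and microglia, stricter gates gave -0.0095 for H2-Aa and -0.0886 for H2-Eb1, and -0.0301 and -0.0902 for the difference of their Hevin effects. That difference ranged from -0.46 to 0.069 for Cd74 and from -0.15 to 0.49 for H2-DMb1 with a library left out. Between Apoe-high macrophages and microglia, Cd74 was -0.0283 with looser gates and -0.12 to 0.12 with a library left out, and Ciita -0.19 to 0.53. Between Lyve1 groups, stricter gates gave 0.12 for H2-Ab1 and 0.0687 for H2-Eb1. H2-DMa there was 0.0367 without a filter, 0.012 with at least 3000 UMIs, 0.11 with at most 5% mitochondrial UMIs and -0.16 to 0.24 with a library left out. The Hevin difference in the share of cells with a class II UMI ran from -5.24 to 16.9 percentage points in Apoe-high macrophages (-1.68 with stricter gates) and from -2.54 to 7.64 in the monocyte or dendritic class with a library left out.

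Calls over all genes, 2131 in all kept cells, ran from 1323 (at least 3000 UMIs) to 4533 (replicate block). They ran from 3 to 521 in microglia (13 in the test reported), 41 to 459 in border macrophages (59), 17 to 186 in the monocyte or dendritic class (72), 1576 to 6699 for Apoe-high macrophages (5801), 45 to 254 for the Lyve1 groups (199) and 24 to 194 for the difference of effects (78); the highest of the first 3 were with the replicate block. Replicate numbers are shared by both groups, but the labels do not say that they pair libraries; same-numbered libraries deviated together with a correlation of 0.57 in all kept cells and in microglia, 0.29 in border macrophages and 0.12 in the monocyte or dendritic class. In all kept cells 61.4% of calls were higher in Hevin, against 38.9% with total counts only, where the median of all genes was -0.11; the members then had a median of 0.41 and 5 were called. In the monocyte or dendritic class the share was 22.2%, and 74.7% with DESeq2. Depth limits Ciita, which rested on 0 to 7 UMIs per library in border macrophages and on 0 or 1 in endothelial cells.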

Other observations

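Microglia-gated cells with an interferon signature (at least 4 UMIs from 2 or more of the genes Ifit1, Ifit2, Ifit3, Isg15, Rsad2, Cxcl10, Oasl2 and Usp18) held more Cd74 than the microglia with neither an interferon nor a dividing signature. There were 66, 55, 27 and 50 such cells in mCherry 1, mCherry 2, Hevin 1 and Hevin 2. Cd74 stood at 498, 294, 242 and 231 CPM in them and at 151, 96.6, 175 and 163 in the others, higher in 4 of 4 libraries, from 130, 73, 20 and 45 UMIs. H2-Aa stood at 7.66, 28.2, 12.1 and 15.4 against 24.7, 15.6, 45.3 and 27.0. In the interferon-gated cells these levels rest on far fewer UMIs than those of Cd74, so no direction is read from them. H2-DMa was higher in 3 of 4 libraries, at 287, 125, 278 and 313 against 186, 168, 235 and 230. No test was run on these small sums.

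Dividing microglia (Mki67, Top2a and others; 93, 54, 50 and 36 cells) did not share this pattern. Their Cd74 level was 121, 190, 153 and 95.2 CPM, above the microglia with neither signature in mCherry 2 and below them in the other libraries.

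Some cells rich in class II lay outside the monocyte or dendritic gate. Cells in which Cd74, H2-Aa, H2-Ab1 and H2-Eb1 made up at least 1% of UMIs numbered 180, 120, 270 and 191. They were 1.01, 1.11, 1.37 and 1.47% of the kept cells, and 136, 98, 157 and 132 of them were in that gate. Ungated cells held 39, 19, 93 and 45, and Apoe-high macrophages 15 and 10 in the Hevin libraries. Ccr2, a marker of the gate, stood at 905, 1246, 999 and 1123 CPM in the rich ungated cells. In the rich gated cells it stood at 1035, 955, 959 and 876. Cd209a, another marker, stood at 84.1, 115, 251 and 111 against 649, 702, 736 and 748. Median depth was 4357, 6819, 3075 and 4911 against 6420, 7082.5, 5998 and 5697.5 UMIs. Whether some rich ungated cells belong to the gated class but missed its marker threshold was not tested. All rich cells were chosen by the genes described here, so the counts are a description. Ungated cells had Cd74 at 4346, 4008, 995 and 1155 CPM, with the lower values in the Hevin libraries, where the ungated class was largest.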
